A study of Homo sapiens with 12 samples.

Results

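DDX11L1, DDX11L2, CICP27, CICP7 and CICP3 are 5 pseudogene entries among the 61255 gene entries of a count table from human cells. They were selected on their counts in the mock and arsenite libraries, which were known from earlier results, and listed by name. Their difference between treatments is therefore given as a description, and no p-value is given for it, although the members are part of the fit over all entries. All 5 had enough counts to pass the filter that left 13108 entries. The libraries came from Huh-7.5, an established hepatocellular carcinoma line, and the study asked how the RNA of engineered versions of it changes under stress. All cells carried APEX2, a peroxidase used for proximity labelling, in 1 of 3 forms: APEX-NES, APEX-NLS or APEX-G3BP1. NES usually stands for a nuclear export signal and NLS for a signal that brings a protein into the nucleus, and G3BP1 is a protein of stress granules. Each form was mock-treated or exposed to 0.5 mM sodium arsenite for 45 minutes, which gave 6 groups with 2 libraries each. The labels do not say whether a form is 1 clone or whether the replicates came from separate cultures, so p-values measure only the spread between these libraries, which may be technical.

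DDX11L genes are pseudogene copies related to the helicase gene DDX11, and most lie at the ends of chromosomes. There they stand tail to tail with a copy of the WASH family, which is named for a regulator of actin on endosomes, on the opposite strand. An RNA polymerase that runs past the 3′ end of such a WASH gene therefore enters the neighbouring DDX11L gene from its far side and copies it in antisense. CICP genes are processed pseudogene copies related to the repressor gene CIC and also occur in many near-identical copies close to chromosome ends. Arsenite is an oxidative stressor that halts protein synthesis, and stress of several kinds is known to let transcription run past gene ends.

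In GENCODE release 29, which is annotated on GRCh38, DDX11L1 (ENSG00000223972) lies on chromosome 1 at 11869 to 14409 on the plus strand, with 4 exonic blocks and the type transcribed unprocessed pseudogene. WASH7P ends inside it from the other side, at 14404 on the minus strand. The symbol DDX11L2 belongs to 2 Ensembl identifiers, and the count table has 1 entry under that name. The identifier placed in release 29 (ENSG00000236397) lies on chromosome 2 at 113599036 to 113601261 on the minus strand, away from the chromosome ends, so "subtelomeric" does not hold for that locus. CICP27 (ENSG00000233750), CICP7 (ENSG00000233653) and CICP3 (ENSG00000229376) are processed pseudogenes on the plus strand of chromosome 1, at 131025 to 134836, 487101 to 489906 and 722092 to 724903. The submitters' processing notes name the build GRCh38.p13, and the annotation used for counting is not given in the sources used here.

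The meeting of the DDX11L1 and WASH7P ends shows why the strand of a read matters for this entry. The last 60 bases of DDX11L1 and the last 30 bases of WASH7P are printed 5′ to 3′, each on its own strand, and the capitals mark the 6 bases where the exons overlap and the letters are complementary.
DDX11L1 3′ end: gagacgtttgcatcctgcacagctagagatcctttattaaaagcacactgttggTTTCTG
WASH7P 3′ end: cacaccaatcaataaagaactgagCAGAAA
The motif AATAAA, the usual polyadenylation signal, starts 20 bases before the end of WASH7P on the WASH7P strand. On that same strand, 1 further AATAAA starts 17 bases past the end of WASH7P, inside the last exon of DDX11L1, which is 1189 bases long. Of 203519 annotated transcripts, 26.9% hold AATAAA in their last 100 bases on the sense strand and 7.58% on the reverse strand. A match of letters is a description and not a site.

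The same tail-to-tail arrangement was found for each of the 8 DDX11L entries of the table at its release 29 locus. Exons overlapped by 6 bases for DDX11L1 with WASH7P, by 8 for DDX11L2 with WASH2P and by 47 for DDX11L16 with WASH6P. The remaining 5 loci left a gap, from 14 bases between DDX11L9 and WASH3P to 1042 bases between DDX11L17 and WASH9P. For the CICP members, the only opposite-strand exonic overlaps were 350 bases of CICP27 with ENSG00000238009, 27 bases of CICP7 with ENSG00000237094 and 3 bases of CICP3 with ENSG00000230021. The entries ENSG00000238009 and ENSG00000237094 held 1 and 0 counts over the 12 libraries, whereas ENSG00000230021 held 5111 to 8068 counts per library.

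The copies are so alike that a read often cannot be placed in only 1 of them. To show this, an 80-base stretch near the 3′ end is printed for 3 DDX11L copies and an 80-base stretch for the 3 CICP members, 5′ to 3′, with the only base that varies in each set in capitals. These stretches were chosen after the counts were seen.
DDX11L1: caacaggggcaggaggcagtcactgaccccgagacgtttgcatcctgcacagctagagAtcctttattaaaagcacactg
DDX11L2: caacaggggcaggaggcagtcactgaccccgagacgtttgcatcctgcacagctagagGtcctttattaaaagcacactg
DDX11L9: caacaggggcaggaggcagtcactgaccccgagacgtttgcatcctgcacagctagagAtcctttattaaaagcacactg
CICP27: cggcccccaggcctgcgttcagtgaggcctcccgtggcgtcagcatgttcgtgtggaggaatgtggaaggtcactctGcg
CICP7: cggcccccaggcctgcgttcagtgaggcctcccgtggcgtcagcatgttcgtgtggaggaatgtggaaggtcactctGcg
CICP3: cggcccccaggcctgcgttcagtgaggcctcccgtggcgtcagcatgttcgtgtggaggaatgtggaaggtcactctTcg
Over aligned transcripts, with gaps counted as differences, DDX11L1 was 93.9% identical to DDX11L2, 99.8% to DDX11L9 and 88.1% to DDX11L16. CICP27 was 99.7% identical to CICP7 and 98.8% to CICP3. Of all 50-base words in its exons, DDX11L1 shared 91.4% with another annotated gene, DDX11L2 63.9%, CICP27 67.7%, CICP7 96.0% and CICP3 87.4%. How reads that match several copies were counted is not given in the sources used here, so each single entry is uncertain and the sum over a family depends less on where such reads were placed.

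The 12 libraries held 1090308 to 1461067 counts, and the smallest level taken as shown, 3 counts, was 2.02 to 2.81 CPM (counts scaled to a common library size, with TMM factors). Intervals and floors hold for counting error alone, because the reads carry no molecular identifiers and may repeat a molecule. The library kit keeps the strand of the RNA, but at 3 pairs of opposite genes the counts stood under the partner that is usually scarce. MALAT1 had 16 to 37 counts per library against 44233 to 81932 for its antisense partner TALAM1, GAPDH had 5 to 40 against 12070 to 22188 for ENSG00000269968, and FTH1 had 11 to 34 against 11497 to 18070 for BEST1. Hepatocyte markers were low too: ALB had 11 to 29 counts per library and TTR 0 or 1, while HBB, VWF and KRT7 were at 0 throughout. A name below therefore denotes an entry of the table. Whether counts under DDX11L1, DDX11L2 or the CICP members come from the named strand or from the strand of their neighbours cannot be told apart from the table alone.

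Counts under both DDX11L members were higher after arsenite in every line, while those under the 3 CICP members lay in overlapping ranges. DDX11L1 went from 12 counts in all mock libraries to 57 in all arsenite libraries, and DDX11L2 from 65 to 197. CICP27 had 57 and 39 counts, CICP7 had 43 and 44, and CICP3 had 120 and 118. Over the table, edgeR's quasi-likelihood test called 38.0% of the 13108 entries at an adjusted p under 0.05, 19.4% higher and 18.6% lower after arsenite. No such call is read for the members, because they were chosen with this contrast known.

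**Figure D1:**
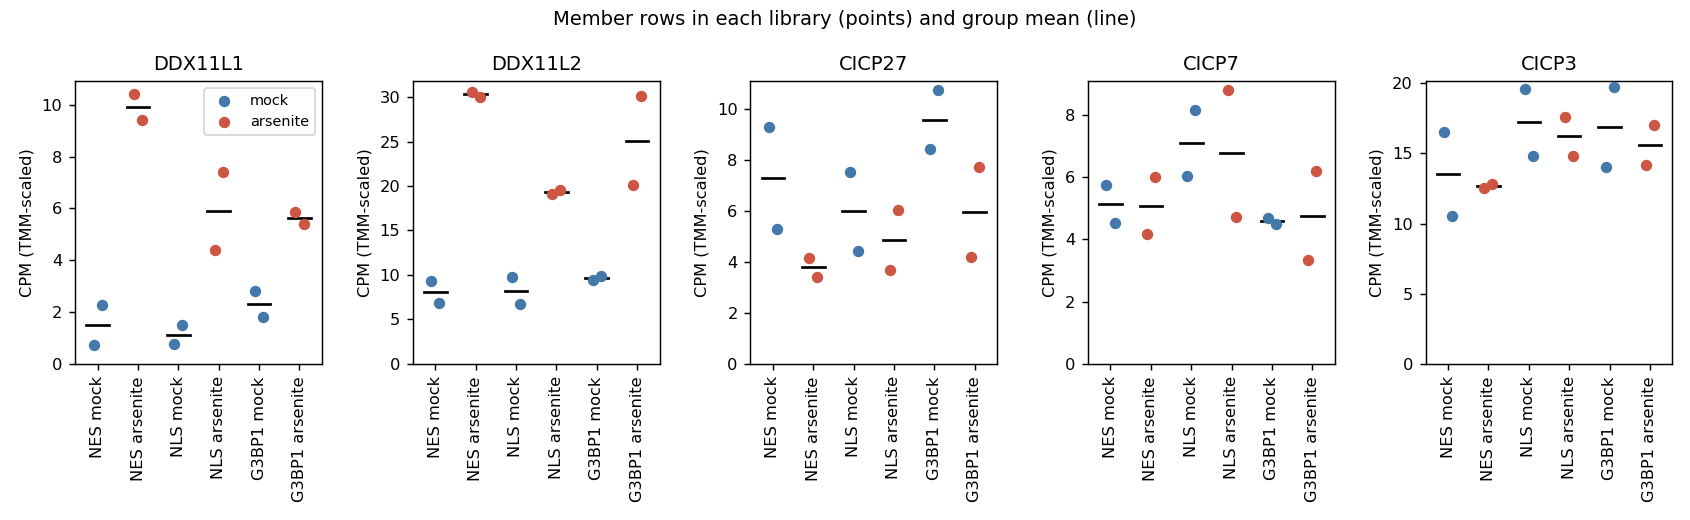
CPM (TMM-scaled; each panel has its own axis starting at 0) of the 5 members in each of the 12 libraries, with mock libraries in blue, arsenite libraries in red and the mean of the 2 libraries of a group as a line. In the DDX11L1 and DDX11L2 panels every red point lies above every blue point, and in the 3 CICP panels the colours overlap.

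DDX11L1, the copy at the tip of chromosome 1, was barely above zero without arsenite. It had 1 and 3 counts in the NES mock libraries, 1 and 2 in the NLS mock libraries and 3 and 2 in the G3BP1 mock libraries. After arsenite it had 15 and 11 counts in the NES, 6 and 11 in the NLS and 7 and 7 in the G3BP1 libraries. The highest mock library thus had 3 counts and the lowest arsenite library 6, and the groups did not overlap. In CPM the level went from 1.64 ± 0.830 to 7.16 ± 2.38 (SD, n = 6 each). The ratio of summed counts per library size was 4.53, with a 95% exact counting interval of 2.40 to 9.28, and the fitted log2 fold change was 2.12 (SE 0.434). No mock library was above the floor, and DDX11L1 passed the filter only through its NES arsenite libraries.

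DDX11L2, the copy whose placed locus is inside chromosome 2, was above the floor in every library. It had 13 and 9 counts in the NES mock, 13 and 9 in the NLS mock and 10 and 11 in the G3BP1 mock libraries. After arsenite it had 44 and 35 counts in the NES, 26 and 29 in the NLS and 24 and 39 in the G3BP1 libraries. All 6 arsenite libraries were above all 6 mock libraries, with a gap from 13 to 24 counts. The level went from 8.64 ± 1.49 to 24.9 ± 5.87 CPM (SD, n = 6 each), a ratio of 2.89 with a counting interval of 2.17 to 3.89 and a log2 fold change of 1.52 (SE 0.200). Separation of this kind, with every arsenite library above every mock library in CPM, was found in 6.39% of all entries tested, and the opposite separation in 4.97%. Nothing is read from these shares for the members.

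CICP27, the longest of the CICP members, had the lowest ratio of the 5. It had 13 and 7 counts in the NES mock, 10 and 6 in the NLS mock and 9 and 12 in the G3BP1 mock libraries, and then 6 and 4, 5 and 9, and 5 and 10 counts after arsenite in the same order of lines. The 6 mock libraries (median 9.5 counts) and the 6 arsenite libraries (median 5.5 counts) overlapped. The level was 7.63 ± 2.40 CPM in mock and 4.87 ± 1.68 CPM in arsenite libraries (SD, n = 6 each). The ratio was 0.653, and the upper bound of its counting interval (0.423 to 0.998) was just under 1. The log2 fold change was −0.62 (SE 0.322), a difference of the size of the spread between libraries. CICP27 passed the filter only through its mock libraries, which favours a lower level after arsenite.

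CICP7 and CICP3 had nearly the same level with and without arsenite. CICP7 ranged from 5 to 11 counts in mock libraries and from 4 to 12 in arsenite libraries, with a median of 7 in both. Its ratio was 0.976 (counting interval 0.626 to 1.52) and its level 5.60 ± 1.41 against 5.54 ± 1.94 CPM (SD, n = 6 each). CICP3 ranged from 14 to 26 counts in mock and from 15 to 24 in arsenite libraries, with medians of 21 and 20. Its level was 15.9 ± 3.51 CPM in mock and 14.8 ± 2.11 CPM in arsenite libraries (SD, n = 6 each), and its ratio 0.938 with a counting interval of 0.721 to 1.22.

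**Figure D2:**
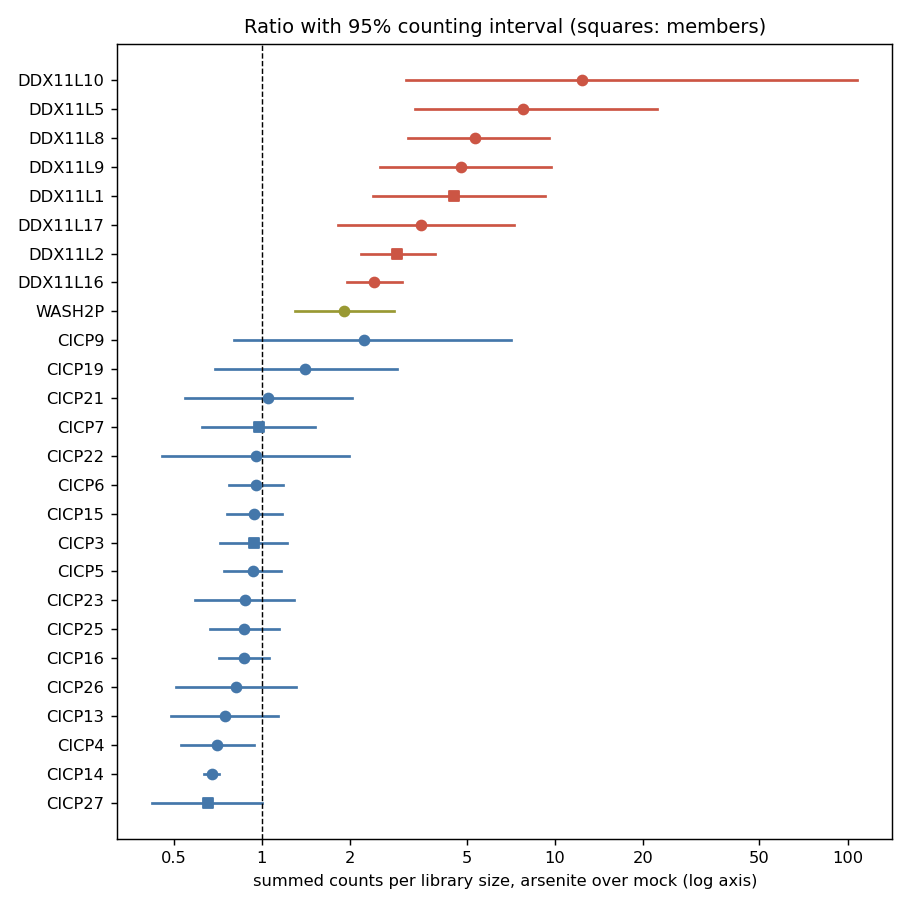
Ratio of summed counts per library size, arsenite over mock, on a log axis, with 95% exact counting intervals as lines, for DDX11L entries in red, CICP entries in blue and WASH2P in olive; members are squares, and the dashed line marks a ratio of 1. All 8 DDX11L intervals lie above 1, from a ratio of 2.42 for DDX11L16 to 12.4 for DDX11L10, whereas the ratios of the 3 CICP members lie below 1.

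The lines were compared next. The list of members names no line, but it was drawn up with counts of these libraries in view. Over both treatments DDX11L1 stood at 5.71 ± 4.93 CPM in NES, 3.97 ± 1.98 in G3BP1 and 3.51 ± 3.03 in NLS libraries, and DDX11L2 at 19.2 ± 12.9, 17.4 ± 9.85 and 13.8 ± 6.52 CPM in the same order (SD, n = 4 each). The SDs include the difference between treatments. For DDX11L2 the order of means was NES, G3BP1, NLS, and these SDs cannot show whether the lines differ. In arsenite libraries alone DDX11L2 stood at 30.3 ± 0.437 CPM in NES, 25.1 ± 7.13 in G3BP1 and 19.3 ± 0.276 in NLS (SD, n = 2 each). In mock libraries alone it stood at 8.06 ± 1.79, 9.61 ± 0.344 and 8.24 ± 2.21 CPM in the same order (SD, n = 2 each). CICP27 was highest in G3BP1 with 7.77 ± 2.72 CPM, and NES (5.55 ± 2.63) and NLS (5.43 ± 1.72) were nearly equal. CICP3 stood at 16.7 ± 2.34 CPM in NLS, nearly the same 16.2 ± 2.68 in G3BP1 and 13.1 ± 2.48 in NES libraries (SD, n = 4 each). CICP7 stood at 6.93 ± 1.90 CPM in NLS, 5.11 ± 0.895 in NES and 4.67 ± 1.17 in G3BP1 libraries (SD, n = 4 each). DDX11L1 passed the filter only through its NES arsenite libraries and CICP7 only through NLS libraries. Their order of lines is therefore not read, and no p among lines is given for either. None of the other members was called different among lines by edgeR's joint quasi-likelihood F test, beside 32.8% of all entries tested. The adjusted p was 0.253 for DDX11L2, 0.437 for CICP3 and 0.500 for CICP27.

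Arsenite moved the DDX11L members in the same direction in each line. The log2 fold change of DDX11L1 was 2.69 in NES cells, 2.32 in NLS cells and 1.26 in G3BP1 cells. That of DDX11L2 was 1.90 in NES cells, 1.22 in NLS cells and 1.38 in G3BP1 cells. For DDX11L2 the NES line had the largest value. DDX11L1 passed the filter only through its NES arsenite libraries, so its order is not read and no interaction p is given for it. The test of the difference itself did not call DDX11L2. The edgeR adjusted p of the interaction was 0.857 for DDX11L2. It was 0.956 for CICP27, and that of CICP3 was higher still, beside 0.183% of all entries called. CICP7 passed the filter only through NLS libraries, so no interaction p is given for it either. DDX11L1 had 1 to 15 counts per library. For DDX11L2, CICP27 and CICP3, a p that misses the threshold does not show that the lines respond alike. CICP27 had a negative log2 fold change in each line, −0.92 in NES cells, −0.28 in NLS cells and −0.67 in G3BP1 cells. It passed the filter only through its mock libraries, so nothing is read from these signs.

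The 6 other DDX11L entries, which were not on the list of members, all had higher counts after arsenite. DDX11L16 was well above the floor in every library, with 24 and 24 in the NES mock, 25 and 18 in the NLS mock and 16 and 13 in the G3BP1 mock libraries, and 41 and 50, 51 and 68, and 44 and 50 after arsenite. It rose by 1.27 on the log2 scale (SE 0.159; adjusted p = 5.12e-11, edgeR), and its groups did not overlap. DDX11L16 shared 71.9% of its 50-base words with other DDX11L copies, so this p does not stand apart from the choice of members. This entry passed the filter on either treatment, but its symbol belongs to 4 Ensembl identifiers, of which 1 is placed in release 29, on chromosome X. DDX11L8 had a log2 fold change of 2.37 (SE 0.339) and DDX11L9 one of 2.21 (SE 0.430). Both had at most 4 counts in any mock library and passed the filter only through the arsenite libraries, so no p is given for them.

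The remaining 3 copies did not pass the filter and were not tested. DDX11L17 had 12 counts summed over mock and 44 over arsenite libraries, a ratio of 3.50 with a counting interval of 1.82 to 7.28. DDX11L5 had 6 and 49 counts, a ratio of 7.79 (3.33 to 22.3). DDX11L10 had 2 and 26 counts, a ratio of 12.4 (3.11 to 108). In all 8 DDX11L entries, members included, every arsenite library was above every mock library in CPM, beside 6.39% of all entries tested, a share that does not cover the 3 untested copies. The copies share sequence, so these 8 are not independent observations, and the DDX11L members were chosen with this contrast known.

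The sum of the 8 DDX11L entries does not depend on how counted reads were divided among these copies. It can still depend on whether reads that match several copies were counted at all. In the NES mock libraries it was 32.3 and 34.0 CPM, in the NLS mock libraries 38.5 and 29.7 CPM and in the G3BP1 mock libraries 31.9 and 27.8 CPM. After arsenite the sum was 112 and 118 CPM in NES, 91.1 and 116 CPM in NLS and 89.4 and 100.5 CPM in G3BP1 libraries. The highest mock value, 38.5 CPM, was well under the lowest arsenite value, 89.4 CPM. The members DDX11L1 and DDX11L2 held 77 of the mock counts and 254 of the arsenite counts in this family.

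The WASH entries held few counts. All 9 WASH-family entries together (the 8 tail-to-tail partners and WASH5P, which adjoins none of the DDX11L loci) had 86 counts in mock and 133 in arsenite libraries. WASH2P, the partner of DDX11L2, was the only one to pass the filter. It had 6 to 10 counts in mock and 9 to 18 in arsenite libraries, a log2 fold change of 0.92 (SE 0.277). It passed the filter only through the arsenite libraries, so no p is given for it. The partner of DDX11L1, WASH7P, had 4 mock and 3 arsenite counts in total, too few for a comparison. DDX11L1 and DDX11L2 together had 0.895 counts per WASH-family count in mock (0.667 to 1.30 over libraries) and 1.91 in arsenite libraries (1.28 to 3.83). On the log2 scale the 2 ratios of sums differed by 1.09, and the ranges met only between the lowest arsenite and the highest mock library. Which strand the counts under the WASH names come from cannot be told apart either.

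**Figure D3:**
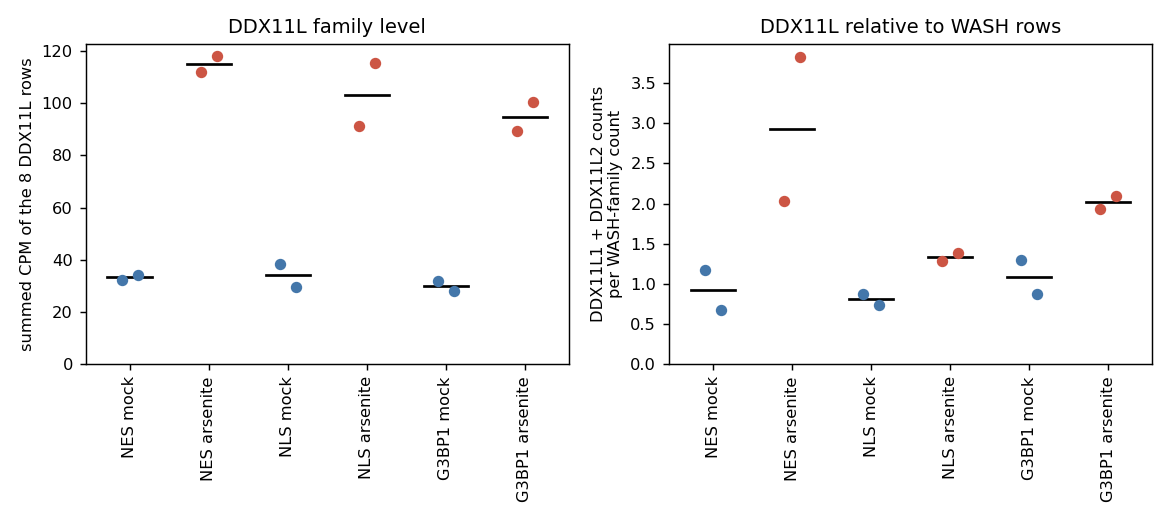
Left, summed CPM of the 8 DDX11L entries in each library. Right, counts of DDX11L1 and DDX11L2 together per count of the 9 WASH-family entries; points are libraries (mock in blue, arsenite in red), lines are means of 2 libraries and both axes start at 0. On the left the arsenite libraries (89.4 to 118 CPM) are clear of the mock libraries (27.8 to 38.5 CPM), and on the right the ranges meet near 1.3.

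The CICP family as a whole held 27 entries, of which 12 passed the filter. Of the 9 that passed and are not members, 0 were called higher by edgeR and 1 was called lower, beside 19.4% and 18.6% of all entries tested. The median log2 fold change of these 9 was −0.21, beside −0.01 over all entries tested. The called entry, CICP14, stood at 350 ± 25.6 CPM in mock and 236 ± 26.2 CPM in arsenite libraries (SD, n = 6 each). It fell by 0.57 on the log2 scale (SE 0.0555, edgeR adjusted p = 1.3e-15). CICP4 was at −0.50 on that scale (SE 0.212; adjusted p = 0.0537, edgeR), and the other 7 non-members that were tested lay between −0.41 and −0.06. Among those 7 were CICP5 (−0.10, SE 0.172), CICP6 (−0.06, SE 0.164), CICP13 (−0.41, SE 0.319) and CICP15 (−0.08, SE 0.171). They also included CICP16 (−0.22, SE 0.155), CICP23 (−0.19, SE 0.302) and CICP25 (−0.21, SE 0.198). Of the 15 entries that were not tested, 8 had at most 3 counts in any library.

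Other genes tied to these loci or names were near the floor or moved by at most 0.49 on the log2 scale. Of 6 FAM138 entries, which lie close to several DDX11L and WASH copies, 5 had no count in any library. MIR1302-9HG, a microRNA host gene, fell by 0.49 on the log2 scale (SE 0.152, edgeR adjusted p = 0.00683). CIC, the parent gene of the CICP copies, was at 0.34 (SE 0.297; adjusted p = 0.387, edgeR). WASHC4, a subunit of the WASH complex, had −0.09 (SE 0.326, edgeR adjusted p = 0.851), and WASHC5-AS1, annotated opposite to another subunit, rose by 0.25 (SE 0.0886, edgeR adjusted p = 0.0183).

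The genes whose pattern over the 12 libraries was most like that of each member were sought among 9379 entries whose mean level reached 10 CPM. The closest to DDX11L1 were CORT (Pearson's r of log2 CPM 0.964), HOMER2 (0.949) and MAPT (0.948), and the closest to DDX11L2 were DSTN (0.972), RPL36A (0.968) and PITPNM2 (0.966). For CICP27 they were SNX18P12 (0.906), ZNF649-AS1 (0.892) and ZNF710-AS1 (0.891). For CICP7 they were RPL18P13 (0.810), RNF220 (0.809) and SERF2 (0.788), and for CICP3 PARP9 (0.893), ERI2 (0.879) and ENSG00000228172 (0.861). DDX11L1 and DDX11L2 correlated with each other at r = 0.878 and with CICP27 at −0.60 and −0.43. All values share the libraries and their treatments, and the highest of 9379 correlations over 12 libraries is high by selection, so these are descriptions only.

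Whether entries in the same position as the DDX11L genes moved in the same way was counted over the table, with classes drawn up after the DDX11L values were seen. Of 12406 tested entries that could be placed in release 29, 19.8% were called higher and 18.4% lower. Among the 2020 that lie within 5000 bases past the 3′ end of a protein-coding gene on the other strand, 41.4% were higher and 8.71% lower, with a median log2 fold change of 0.31. Past the 3′ end of a gene on the same strand the shares were 27.9% and 12.8% of 1278 entries, and before the 5′ end of a gene on the other strand 26.9% and 10.6% of 1221. None of the DDX11L entries is in these classes, since all but 1 of their partners are pseudogenes and DDX11L5, beside WASHC1, was not tested. The classes were not matched on level or gene type.

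**Figure D4:**
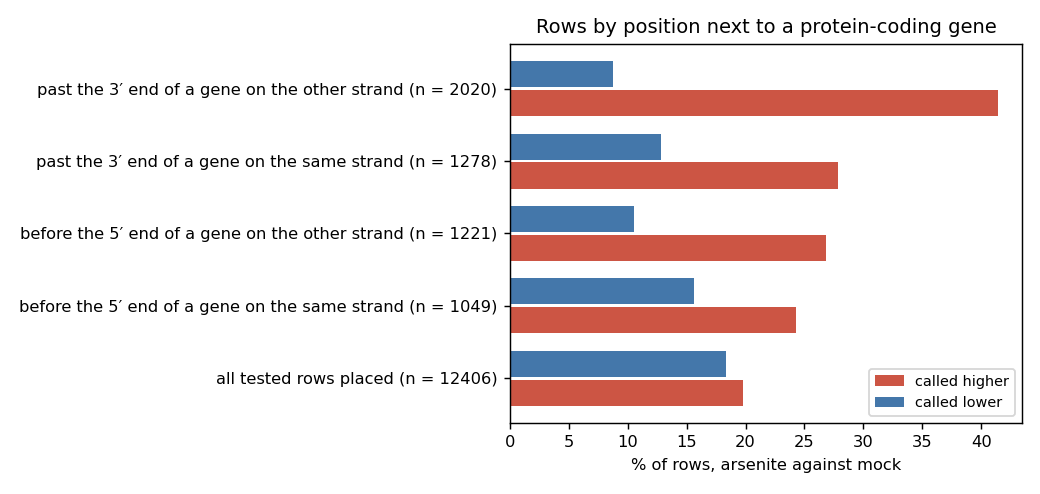
Share of tested entries called higher (red) or lower (blue) after arsenite, in percent from 0, by position within 5000 bases of a protein-coding gene; n is the number of entries in a class. Entries past the 3′ end of a gene on the other strand have the highest share called higher, 41.4% of 2020, against 19.8% of all 12406 placed entries.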

How the data were processed

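The deposited table holds raw read counts by gene in 16 columns, which are whole numbers with unequal totals. For 4 of the columns no sample carries a fitting label, and they were left out. Per the submitters' processing notes, Trim Galore, Subread, featureCounts and edgeR were used with build GRCh38.p13, and versions and the strand setting of the counting are not given in the sources used here. Total RNA was Trizol-extracted, depleted of ribosomal RNA and made into libraries with a directional kit, per the labels' protocols.

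Counts were tested with edgeR 4.0.16 in R 4.3.3 by TMM, filterByExpr (minimum count 10, minimum total 15), the quasi-likelihood F test and Benjamini-Hochberg adjustment over all 13108 entries, with adjusted p under 0.05 called. Line and treatment were additive terms over 12 libraries (8 residual degrees of freedom), and the interaction came from a model with 1 mean per group (6 residual degrees of freedom). The SE is the log2 fold change divided by the root of F. Ratios are summed counts over summed TMM-scaled library sizes, with 95% exact binomial intervals for counting error only. The fits were tested on simulated data. Sequences, overlaps and identities were computed with Python 3.11.15 and Biopython 1.88 from GENCODE release 29 transcripts.

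The members and lists were chosen with earlier results of these data known. Named genes were the 5 members, every related entry (DDX11L, CICP, WASH, FAM138, MIR1302 and parent genes) that passed the filter, the 3 entries most like each member, the 3 strand pairs and cell type markers. The DDX11L copies and WASH7P that did not pass were named after their values were seen. The replicates of each of the 6 groups differed by more than sampling noise (chi-square over degrees of freedom 1.11 to 1.39). Alternatives were other scalings, filters, DESeq2 1.42.0, a replicate block and leaving out each library.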

Additional observations from a re-analysis of the deposited data

How the results depend on the processing

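The log2 fold changes of the members, given as descriptions, ranged over 18 alternatives from 1.86 to 2.35 for DDX11L1, from 1.42 to 1.63 for DDX11L2, from −0.75 to −0.47 for CICP27 and from −0.17 to −0.02 for CICP3, while CICP7 went from −0.15 to 0.12. Calls after arsenite numbered 4986, with 3662 by DESeq2, 5351 with a filter at 1 CPM and 4681 to 4972 when each library was left out in turn. Calls among lines numbered 4303, with 2896 by DESeq2 and 3956 to 4281 with a library left out. Calls for an arsenite effect differing among lines numbered 24, against 0 by DESeq2 (216 at an unadjusted p under 0.05, and 1097 by edgeR) and 20 to 31 with a library left out, where the lone library of an arm is assumed to vary like the others. The cause of the difference between tools was not tested. Scaling by total counts gave 2168 higher among 5024 calls, and moved the median log2 fold change of all entries from −0.01 to −0.06. With the replicate number as a block, 4983, 4315 and 32 entries were called. Same-numbered mock and arsenite libraries did not deviate together (r from −0.05 to 0.01 over 6392 entries), so the number is not taken as a pairing. The log2 difference in DDX11L counts per WASH count was 1.09 for both members, 1.62 for DDX11L1 alone, 0.97 for DDX11L2 alone, 1.13 for all DDX11L entries and 0.94 to 1.20 with a library left out. CICP4 was called lower in 5 of 18 alternatives and WASHC5-AS1 lost its call in 6 of 18. DDX11L1 had 1 to 3 counts per mock library, so its ratio is known only within its counting interval.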

Other observations

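Among tested entries within 5000 bases past the 3′ end of a protein-coding gene on the other strand, the share called higher after arsenite was 40.1% of 863 with a gap of up to 1000 bases and 43.1% of 1209 with a longer gap, where an entry beside 2 genes can count in both. Restricted to entries that are not protein-coding, as the DDX11L genes are, the share called higher was 32.0% of 375 in that position, 18.5% of 466 before the 5′ end of a gene on the other strand and 11.2% of 6039 in all. These splits were chosen after the first counts were seen and were not tested.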
